A study of Mus musculus with 9 samples.

Results

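Spry4 and Arhgap26 are neighbouring genes on mouse chromosome 18. In mouse embryonic stem cells, 4-hydroxytamoxifen (4OHT) was given to activate a RAF fusion protein, which acts upstream of ERK. Described here are the 28 chromatin sites in and around these genes whose accessibility differed between untreated and 4OHT-treated cells. They are the rows of the authors' deposited table of changed sites with a centre between 38551000 and 39411000 (mm10), a window of 860 kb, out of 19165 rows in all. In the RefSeq gene table Spry4 (gene ID 24066) runs from 38586247 to 38601347 and Arhgap26 (gene ID 71302) from 38601617 to 39376285, so that 269 bp lie between them. The rows were selected on the authors' FDR of control against 4OHT, at 0.01 or less, and the window was chosen by position with those changes known. Counts, levels and changes below are therefore a description, and no test of that contrast is added.

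The assay was ATAC-seq, which reads out open chromatin as the places where the Tn5 transposase could enter and tag the DNA. It was run on embryonic stem cells of the E14tg2a line from the 129SV background. All cells stably carried cRAF-ErT2, a RAF kinase fused to an estrogen receptor domain that 4-hydroxytamoxifen (4OHT) activates, and all were grown in serum with LIF. They received 2 µM Chir99021, an inhibitor of GSK3, until the last 24 h before treatment, when the medium was replaced by one with 250 nM of the FGF receptor inhibitor PD173074. The 9 libraries were 3 untreated controls (0 h), 3 given 250 nM 4OHT for 1 h and 3 given it for 2 h. Cells without the fusion and vehicle-treated cells are not among them, so effects of ERK, of 4OHT and of handling cannot be told apart. The sources used here do not name the promoter of the fusion gene or say whether the line is a single clone.

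The table gives 1 mean level per site for the controls and 1 for the 4OHT side, in log2 normalized reads, with no value per library. The 4OHT mean was taken to cover 6 libraries, both times together, so 1 h and 2 h were not compared. A spread between libraries could not be computed for any site, and whether the libraries of the 2 sides overlap cannot be seen. Markers of the cell type could not be checked either, since the table lists changed sites and not levels of genes. The authors' FDR is the one available value that may reflect spread between libraries, and that spread may be technical. Read depth per library is unknown. Control levels of the 28 sites ran from 23.1 to 1898 normalized reads. The titles name the libraries of each time A, B and C, while the description fields tag those titled B as B2 and those titled C as B, so the last 2 may be repeats of 1 replicate, and no value without either can be had from means.

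Sprouty proteins restrain signalling from receptor tyrosine kinases to RAS, RAF and ERK, and their genes are themselves switched on by ERK, which makes them part of a negative feedback loop. In mouse embryonic stem cells the main input to this pathway is FGF4 acting on FGF receptors, and ERK activity is needed for cells to leave the naive pluripotent state. Spry4 encodes one member of the Sprouty family. Arhgap26 encodes GRAF1, a GTPase-activating protein that turns off RhoA and Cdc42 and acts in endocytosis, cell spreading and adhesion. As general background, Spry4 is read towards lower coordinates and Arhgap26 towards higher ones, so that their promoters lie back to back. The gene table used here gives no strand and no exons, so sites are placed by gene body alone.

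Of the 28 sites, 25 rose and 3 fell after 4OHT. Of all listed sites, 52.6% rose and 47.4% fell, and the table itself held 7.86% of the sites that its FDR values imply were tested. The share that rose in the window was 89.3% (exact Clopper-Pearson 95% interval 71.8 to 97.7%). That interval covers counting error alone and treats sites as independent, which neighbouring sites measured in the same libraries are not. It is no test against the share over the table. The median log2 change of the 28 sites was 1.055, with a range of -0.81 to 3.28, against 0.59 over the whole table. Among rising sites alone the order was the other way, with a median log2 change of 1.16 in the window and 1.46 over the table. The rising sites of the window started from a higher control level, at a median of 7.59 log2 normalized reads against 5.43 for all rising sites.

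The sites were not spread evenly. Numbered 1 to 28 by position, sites 1 to 19 lay between 38557903 and 38637381, a stretch of 79.5 kb that holds the whole of Spry4 and the first 35.8 kb of Arhgap26. All 19 rose. The median gap between neighbours there was 2.07 kb and the widest 12.6 kb. The stretch was bounded by gaps of more than 20 kb, so short gaps within it follow from its definition. Between neighbouring sites of the whole table the median gap was 60.0 kb. The other 9 sites were scattered over 683 kb, 6 of them rising and 3 falling. When the whole table was divided wherever 2 neighbours lay more than 20 kb apart, a limit chosen after the values were seen, it fell into 14112 groups with a median of 1 site, and 2 of these held more than the 19 sites of the Spry4 stretch, the largest of them 42.

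**Figure D1:**
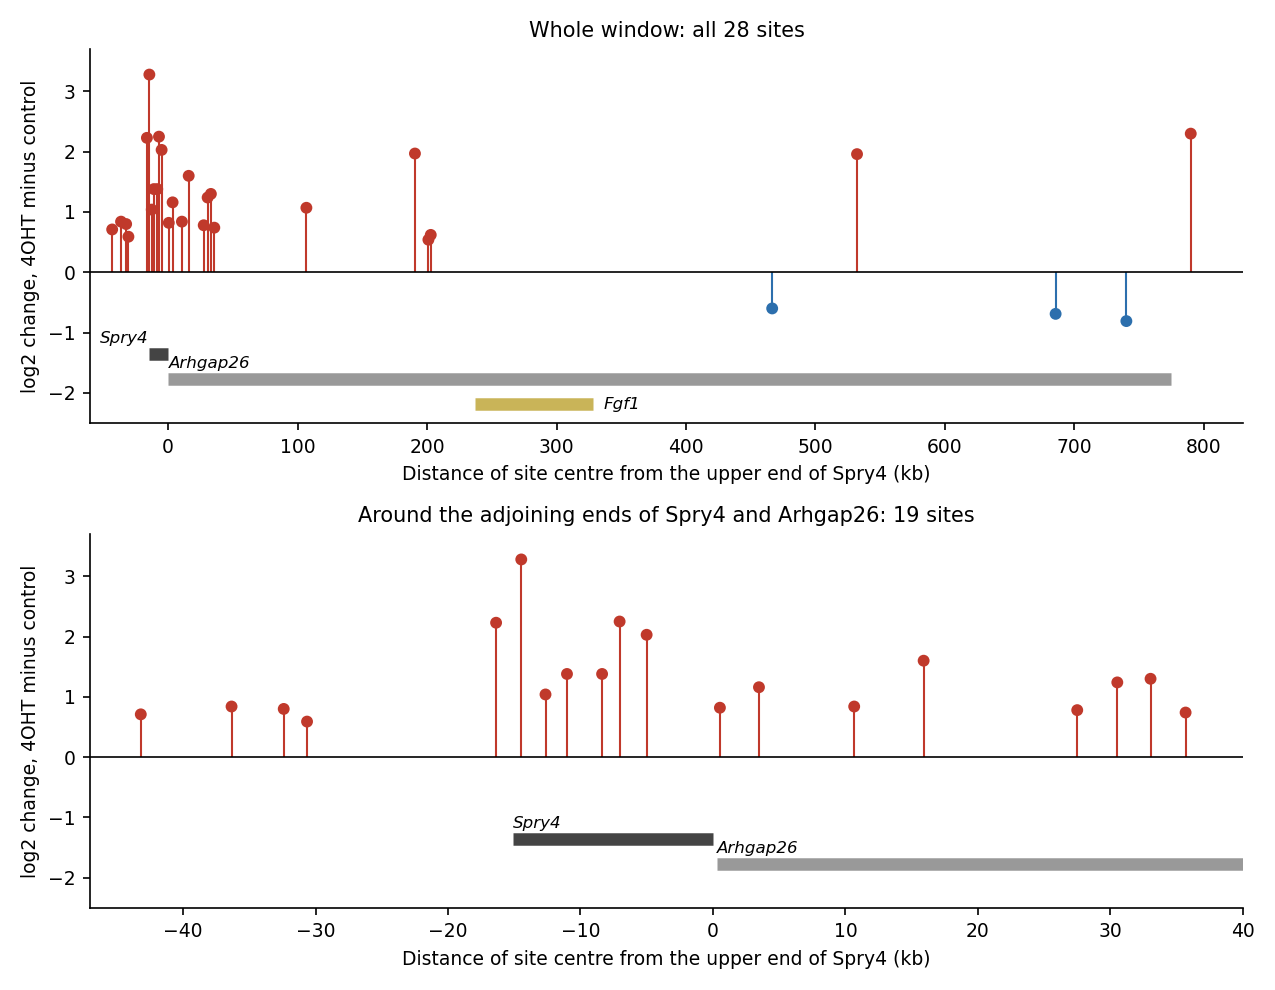
Log2 change in accessibility (4OHT minus control, vertical axis) of each listed site against the distance of its centre from the upper end of Spry4 in kb, with red for sites that rose and blue for sites that fell. The top panel shows all 28 sites and the lower panel sites 1 to 19, with bars for the gene bodies; the tallest gain is site 6 inside Spry4 at 3.28, followed by site 28 past the end of Arhgap26 at 2.30, and the 3 losses lie in the far part of Arhgap26.

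Spry4 carried the site with the largest log2 gain of the window. Site 6, inside the gene near its lower end at chr18:38586554-38587198, went from 6.51 to 9.79 log2 normalized reads, or from 91.1 to 885 normalized reads, a 9.71-fold gain. Its FDR of 4.37e-26 in the authors' deposited table was the smallest of the 28, and its p-value was number 3 of all 19165. This end of the gene is the one away from its promoter, by the background reading direction given above.

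Site 5 lay just past that same end, at chr18:38583779-38586172, and ended 75 bp short of the gene. It was the widest of the 28, at 2394 bp. Its level went from 9.12 to 11.35 log2 normalized reads, a 4.69-fold gain (FDR 4.79e-20 in the authors' deposited table), which came to 2054 additional normalized reads, the most of any of the 28. Strong gains were rare at sites this open before treatment. Of the 623 rising sites of the table with a control level of at least 9, 39 gained at least 1 on the log2 scale and 1 gained at least 2, and that 1 was site 5. These limits were chosen after its values were seen.

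The other 5 sites with a centre inside Spry4 also rose. Site 7, at chr18:38588541-38588871, went from 7.78 to 8.82 log2 normalized reads, the smallest change within the gene, at 1.04 (FDR 0.00429 in the authors' deposited table). Site 8, at chr18:38589835-38590820, went from 8.93 to 10.31 log2 normalized reads, the highest level reached inside the gene (FDR 1.23e-06 in the authors' deposited table). Sites 7 and 8 were the most open of the 6 before treatment and, with site 9, had the smallest folds.

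Site 9, at chr18:38592789-38593168, went from 7.52 to 8.90 log2 normalized reads, a 2.60-fold gain (FDR 4.36e-11 in the authors' deposited table). Site 10, at chr18:38594125-38594477, went from 6.27 to 8.52, a 4.76-fold gain from the lowest control level in the gene (FDR 1.76e-15 in the authors' deposited table). Site 11, at chr18:38596074-38596609, went from 6.84 to 8.87, a 4.08-fold gain (FDR 8.42e-21 in the authors' deposited table). The p-value of site 11 was number 5 of the whole table, that of site 5 number 6 and that of site 10 number 13. Thus 4 of the 13 smallest belonged to sites in or just beside Spry4. The cutoff of 13 is the rank of site 10 and was chosen after the values were seen.

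The sites inside Spry4 differed less from each other after 4OHT than before. Per kb of site width, the 6 control levels ran from 141 to 664 normalized reads, with the highest 4.70 times the lowest. The 6 levels after 4OHT ran from 873 to 1373 normalized reads per kb, with the highest 1.57 times the lowest. A fall in this ratio was not particular to Spry4. It fell from 19.8 to 15.4 over sites 1 to 19 and from 602 to 61.8 over all rising sites of the table. It rose from 2.23 to 3.02 over sites 16 to 19 and from 48.4 to 100 over all falling sites of the table. Summed over the 6 sites, which cover 3231 bp, the level went from 1174 to 3919 normalized reads, a ratio of 3.34. The control level enters the change, and its part in this narrowing was not tested.

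The site over the promoters was the most accessible of the window and had one of the smaller folds. Site 12, at chr18:38600804-38602942, is 2139 bp wide and overlaps the end of Spry4, the 269 bp between the genes and the beginning of Arhgap26. Its level went from 10.89 to 11.71 log2 normalized reads, or from 1898 to 3350 normalized reads, a 1.77-fold gain (FDR 4.72e-05 in the authors' deposited table). By control level it stood at number 103 of the 19165 sites, and by mean level at number 23. The additional 1452 normalized reads were the second largest gain of the window in absolute terms, although 17 of the 25 rising sites had a larger log2 change. With its centre just inside Arhgap26 the site counts as an Arhgap26 site in the numbers below, but reads from a site over both promoters cannot be given to either gene.

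**Figure D2:**
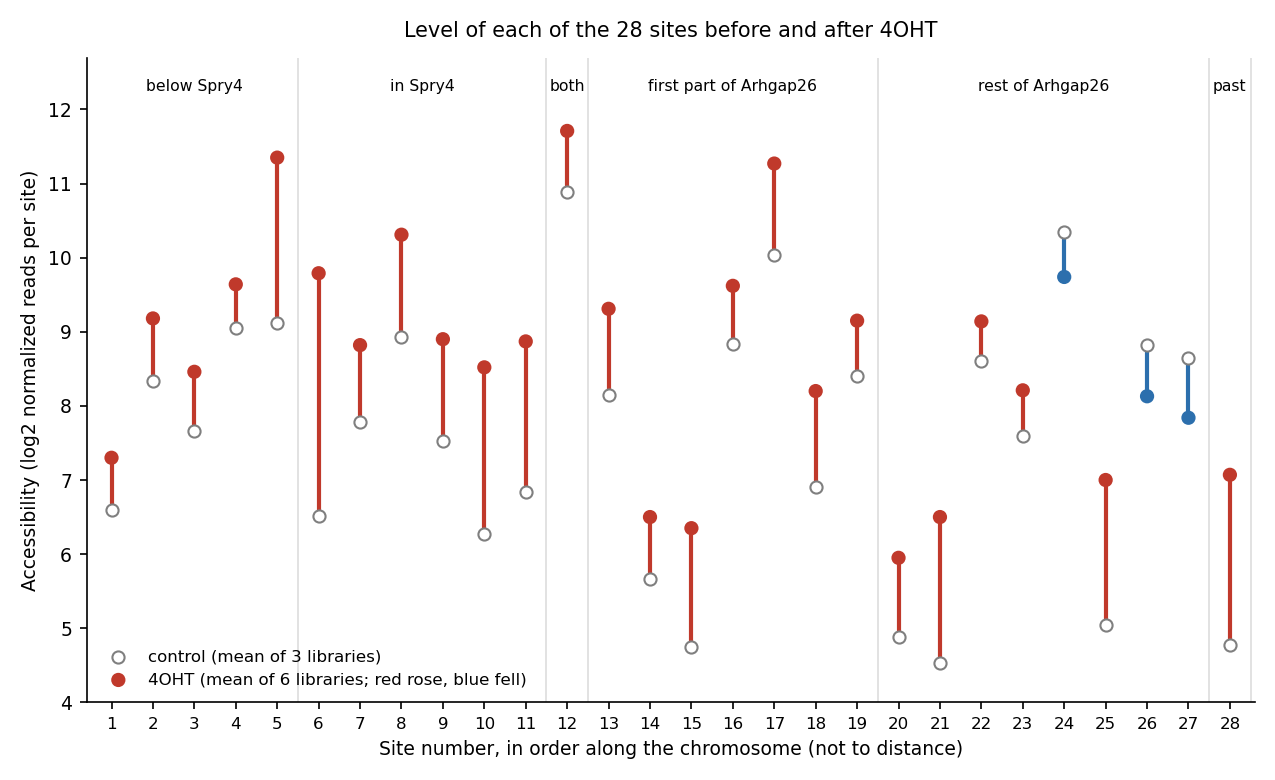
Level of each of the 28 sites in log2 normalized reads (vertical axis), in order along the chromosome, with open circles for the authors' mean of the 3 control libraries and filled circles for their mean of the 6 4OHT libraries, red where the site rose and blue where it fell. Site 12, marked as over both genes, is the highest before and after treatment at 10.89 and 11.71, and the lines are longest at sites 5, 6, 10 and 28.

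On the side of Spry4 away from Arhgap26, 4 more sites rose, all modestly. They lay 15.5 to 28.1 kb from the gene, between 38557903 and 38571139. Their log2 changes were 0.71, 0.84, 0.80 and 0.59 for sites 1 to 4, and their control levels ran from 6.59 to 9.05 log2 normalized reads. Closest of the 28 to the limit of 0.01 that bounds the table was site 2, with an FDR of 0.00939 in the authors' deposited table. The next listed site beyond the window on this side lay 57.4 kb outside it at chr18:38493419-38493780, nearest Ndfip1, an adaptor gene for Nedd4 family ubiquitin ligases, and rose from 4.25 to 6.08. None overlapped Ndfip1.

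On the Arhgap26 side, sites 13 to 19 also rose, over the first part of that gene. Site 13, 3.21 kb into the gene at chr18:38604520-38605124, went from 8.15 to 9.31 log2 normalized reads (FDR 6.57e-04 in the authors' deposited table). Sites 14 and 15 were much less accessible, at control levels of 5.66 and 4.75 log2 normalized reads, and rose by 0.84 and 1.60. A tight group of 4 sites followed, 27.2 to 35.4 kb into the gene.

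In that group site 17, at chr18:38631373-38632379, was the most accessible of the window by mean level after site 12. It went from 10.03 to 11.27 log2 normalized reads, a 2.36-fold gain, or 1424 additional normalized reads (FDR 0.00350 in the authors' deposited table). Of 220 rising sites of the table with a control level of at least 10, limits again chosen after the values were seen, 6 gained at least 1, and site 17 was one of them. Per kb of width it was the highest of the 28, both before (1038 normalized reads) and after 4OHT (2452).

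The others of the group were sites 16, 18 and 19, with log2 changes of 0.78, 1.30 and 0.74. Site 18 is the narrowest of the window at 257 bp, at chr18:38634258-38634514, and went from 6.90 to 8.20 log2 normalized reads. Its FDR of 2.24e-09 in the authors' deposited table was the smallest of any site nearest Arhgap26. Site 16 followed at 1.35e-07 in the authors' deposited table.

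Within the 79.5 kb stretch the median gain was larger at and just beside Spry4 than farther out. The 9 sites inside the gene or with a centre within 5 kb of it had a median log2 change of 1.38. All 9 rose, and 8 of them gained at least 1. Over all listed sites, falling ones included, 40.8% gained as much. Among rising sites alone, 7821 of 10079 did, and the median change of those 10079 was 1.46, above that of the 9 sites. The 4 sites farther below had a median of 0.755 and the 6 farther into Arhgap26 one of 1.04. Across the 19 sites Spearman's rho between the distance from the Spry4 body and the log2 change was -0.59, given as a description, since all points come from the same libraries. The 6 sites with a centre inside Spry4 are tied at the smallest distance. On the Arhgap26 side gains did not fall steadily with distance. From site 12 to site 19 the log2 changes were 0.82, 1.16, 0.84, 1.60, 0.78, 1.24, 1.30 and 0.74. By absolute signal, the 9 sites inside Spry4 or within 5 kb of it made up 64.9% of the 10169 normalized reads gained over the 25 rising sites.

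All 4 gains of at least 2 on the log2 scale in the stretch were at Spry4 or just past its lower end (sites 5, 6, 10 and 11). Another was site 28 at the far end of the window, which made 5 of 28, where 11.4% of all listed sites gained as much. Among rising sites alone, these were 5 of 25 in the window and 2194 of 10079 over the table.

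The rest of Arhgap26 held 8 sites in 739 kb and looked different. After site 19 there was no listed site for 70.6 kb, then site 20 alone, and after another 83.5 kb the group of sites 21 to 23. Site 21, at chr18:38791832-38792157, had the lowest control level of the window and went from 4.53 to 6.50 log2 normalized reads (FDR 2.34e-06 in the authors' deposited table). Its neighbours 22 and 23, at least 9.89 kb away, were more accessible, at control levels of 8.60 and 7.59, and had the smaller gains of 0.54 and 0.62.

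Fgf1, which encodes a ligand of FGF receptors, lies within the span annotated for Arhgap26, at 38838672 to 38929470, and no listed site overlapped it. The longest stretch without one, 262 kb between sites 23 and 24, covers it. An unlisted region may be closed, open without change or below the limit of the test, and the table does not tell these apart.

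The 3 sites that fell were all in the last 39.8% of Arhgap26, a bound set by the position of the first of them, site 24. Site 24, at chr18:39067129-39068685, went from 10.34 to 9.74 log2 normalized reads, a change of -0.60 (FDR 8.37e-04 in the authors' deposited table), and its control level was the second highest of the window. Site 26, at chr18:39285982-39287653, went from 8.82 to 8.13 (change -0.69, FDR 5.27e-04 in the authors' deposited table). Site 27, at chr18:39340915-39342008, went from 8.65 to 7.84 (change -0.81, FDR 0.00304 in the authors' deposited table). All 3 losses were smaller than the median loss over the table of -0.94.

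Rising sites lay in the same part of the locus. Site 25, at chr18:39133288-39133585, lies between falling sites and went from 5.04 to 7 log2 normalized reads (FDR 5.28e-06 in the authors' deposited table). Site 28, past the end of Arhgap26 at chr18:39390929-39391442, went from 4.77 to 7.07, a 4.92-fold gain (FDR 9.41e-06 in the authors' deposited table). The 6 rising sites after the Spry4 stretch (20 to 23, 25 and 28) had control levels of 4.53 to 8.60 and widths of 298 to 1223 bp, with sites 22 and 23 the most open and widest of them. The 3 falling sites had control levels of 8.65 to 10.34 and widths of 1094 to 1672 bp, so that the widths of the rising and falling sites overlapped and the control level of site 22 was close to that of site 27. Over the whole table, falling sites started higher and were wider than rising ones, with median widths of 557 and 408 bp.

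Site 28 lies between the end of Arhgap26 and Nr3c1, the glucocorticoid receptor gene, which begins at 39410545. No listed site overlapped Nr3c1, and the next one above the window was 389 kb beyond it, where a site nearest Pabpc2 rose from 5.11 to 6.66 log2 normalized reads. Without a break in direction, rising sites ran from 37732456 to site 23, which is 37 neighbouring sites of the table, 23 of them in the window. Of the 7630 such runs of 1 direction in the table, 2 were at least that long, this one included, and the longer one had 40 sites.

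**Figure D3:**
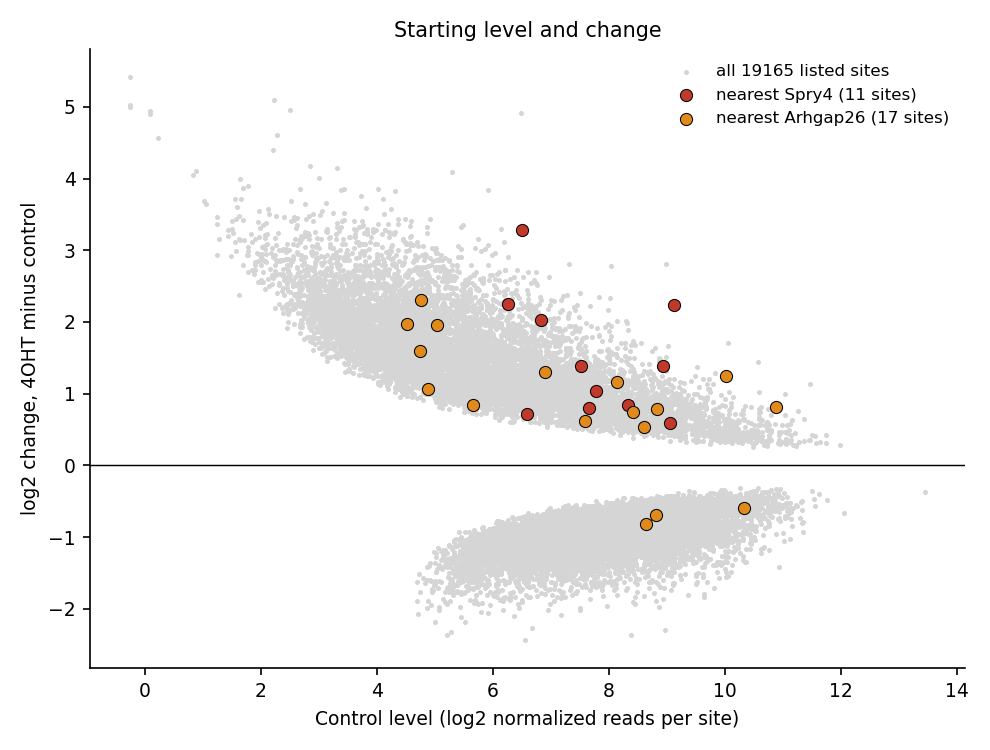
Log2 change (vertical axis) against control level in log2 normalized reads (horizontal axis) for all 19165 listed sites in grey, the 11 sites nearest Spry4 in red and the 17 nearest Arhgap26 in orange. Sites 5 and 6 lie on the upper rim of the grey cloud at control levels of 9.12 and 6.51, and the 3 falling sites lie at 8.65 to 10.34; the empty band around 0 is where changes did not pass the authors' limit.

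By nearest gene body, 11 of the 28 sites were given to Spry4 and 17 to Arhgap26. All 11 of Spry4 rose, with a median log2 change of 1.38, and 14 of 17 of Arhgap26 rose, with a median over the 17 of 0.84. This naming rule does not show which gene a site regulates. Arhgap26 is 775 kb long and Spry4 15.1 kb, and the sites overlapping each came to 2.07 and 46.4 per 100 kb of gene.

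Of 13 other genes of ERK feedback and FGF response set beside Spry4, 11 had a listed site, 6 with rising sites alone, 1 with falling sites alone and 4 with both. Of all protein-coding genes, 36.1% had one by the same rule. Their 45 sites included 37 that rose (82.2%, against 52.6% of all listed sites), with a median log2 change of 1.25 over the 45. Spry4 had the most sites of the 14 genes. Phlda1, a pleckstrin homology domain gene induced by ERK, followed with 9, all rising, with a median of 2.02.

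The other Sprouty and Spred genes, whose proteins act on the same pathway, had fewer sites. Spry1 had 2 rising sites, with log2 changes of 1.20 and 1.46 and control levels up to 4.85 log2 normalized reads. Spry2 had 1 rising site, at 1.70, and 1 falling, at -0.86, and Spry3 had none. Spred1 had 3 rising sites, Spred2 had 3 rising and 3 falling, and Spred3 had none.

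Among listed genes with at least 4 sites, those with a median log2 change closest to the 1.38 of Spry4 were Etv5 (1.195 over 6 sites), Etv4 (1.175 over 4) and Dusp5 (1.80 over 6). Etv4 and Etv5 encode ETS transcription factors and Dusp5 a nuclear ERK phosphatase. Dusp6, which encodes a cytoplasmic ERK phosphatase, had 2 falling sites, both at -0.85. Etv5 had 5 rising sites and 1 falling, and all 4 of Etv4 and all 6 of Dusp5 rose.

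Of the relatives of Arhgap26 in the GRAF family, Arhgap10 and Arhgap42 had 2 sites each. Both rose at Arhgap10, with log2 changes of 1.12 and 1.95, while Arhgap42 had 1 rising and 1 falling site. Arhgap26, with 17 sites, had the most of these 3 genes. It is also the longest of them, at 775 kb against 268 kb for Arhgap10 and 247 kb for Arhgap42, and 8 of its 17 sites lie in the stretch next to Spry4.

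**Figure D4:**
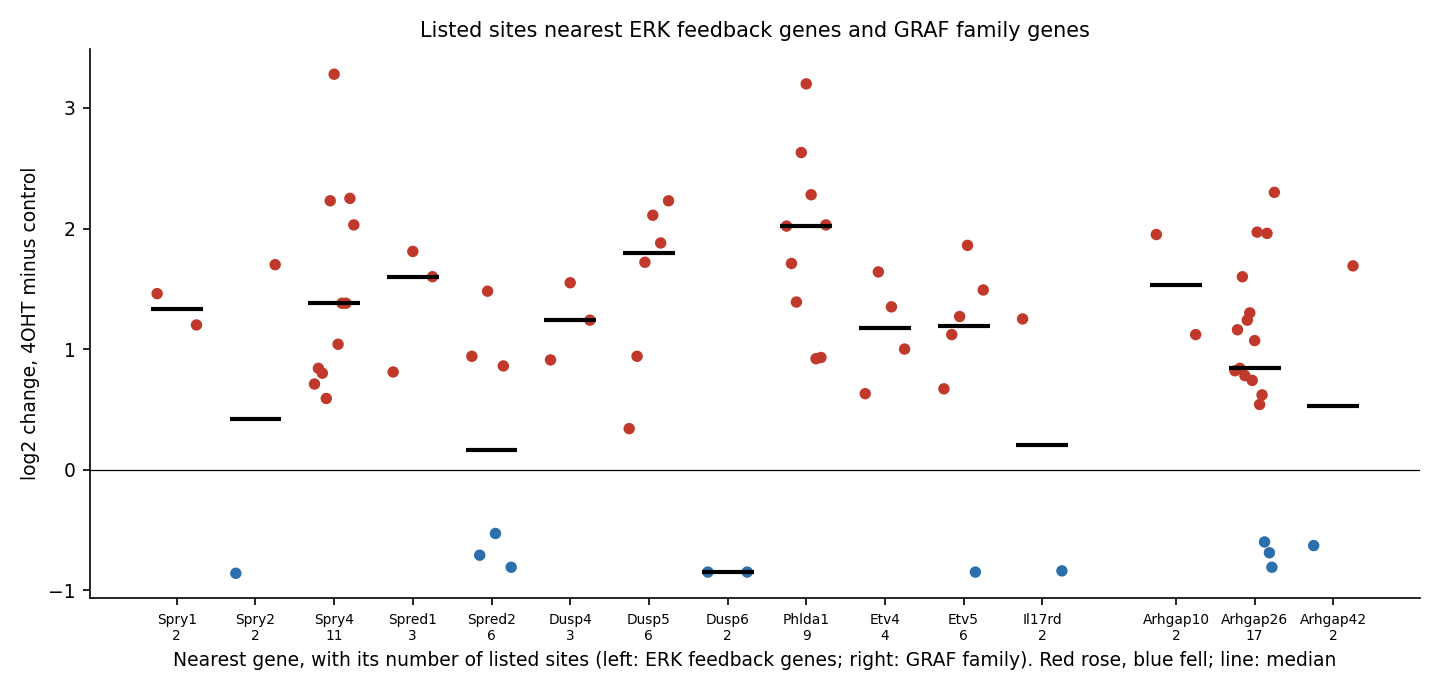
Log2 change (vertical axis) of each listed site by nearest gene, for the ERK feedback genes on the left and 3 genes of the GRAF family on the right, with red points for sites that rose, blue for sites that fell, a bar at the median and the number of sites under each gene. The 11 points of Spry4 all lie above 0 and reach 3.28, and those of Arhgap26 lie on both sides.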

How the data were processed

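ATAC-seq of 9 libraries was deposited as 1 table of changed sites. Bowtie2, MACS2 and bedtools were used with build mm10, per the submitters' processing notes. The sources used here do not state the differential test, the read filters or the normalization. Levels are the authors' log2 means, and the p-value and FDR are the authors' deposited values, per the file headers. Labels do not say whether libraries came from separate cultures, so these p-values may measure technical spread.

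The change is the 4OHT level minus the control level, within 0.01 of the authors' fold with its sign turned. A mean weighted 3 to 6 came within 0.00986 of the mean over all libraries, from which the number of 4OHT libraries was inferred. Normalized reads are 2 to the power of the log2 level. About 243800 tested sites are implied by a Benjamini-Hochberg FDR.

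Genes came from the RefSeq table of GRCm38.p6, the assembly mm10 names. A site was given to the protein-coding gene whose body was nearest, up to 100 kb away. All 17 list genes used were found there; 1 further gene of the lists is not reported here. The window, lists and genes were chosen with earlier results of these data known. Named in full by rule were sites inside or within 5 kb of Spry4, the 5 smallest FDR values, the 3 largest gains, the falling sites and the 3 highest levels; sites 16, 18, 21, 25 and others were added after their values were seen. No sequence is shown. Columns of other samples numbered 0. The tools were pandas 2.3.3, scipy 1.17.1, numpy 2.4.6 and matplotlib 3.10.9 under Python 3.11.15.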

Additional observations from a re-analysis of the deposited data

How the results depend on the processing

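Of the 28 sites, 18 had an FDR under 0.001 in the authors' deposited table. By size, 15 changed by 1 or more on the log2 scale, of which 100% rose, and 40.8% of all listed sites gained as much. Among rising sites alone, these were 15 of 25 in the window and 7821 of 10079 over the table. Such a size limit favours rising sites, since over the table the median rise was 1.46 and the median loss -0.94. For all listed sites, the exact share under that FDR and the share rising under the size limit were not computed. Given by the nearest gene end in place of the gene body, Arhgap26 had 11 sites against 17, as 5 sites went to the nearer ends of Gm19774, Fgf1 or Gm5820 and 1 lay over 100 kb from any gene end. The count of sites, the share rising and the median change otherwise moved little: with sites centred in either gene, the window widened by 100 kb, any overlap, a mean log2 level of at least 5, and, for the median, the authors' fold, the share ran from 86.4 to 89.7% and the median from 1.055 to 1.115. With FDR under 0.001 these were 88.9% and 1.38. The count for Spry4 was 11 within 50 kb and 12 with site 12 given to it, an alternative chosen after the data were seen. No paired analysis was possible because the table holds no value per library, and leaving out a replicate and the planned test per library were not run for the same reason.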
